A study of Mus musculus with 15 samples.

Results

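The transcripts of 10 genes of the NRF2 antioxidant pathway were followed in the BV2 line, an immortalized mouse microglial cell line. The members were the rows named *Nfe2l2*, *Keap1*, *Nqo1*, *Gclc*, *Gclm*, *Srxn1*, *Txnrd1*, *Txn1*, *Prdx1* and *Gsr*, which are 10 of the 54390 genes listed for every library. Of these, 9 passed a filter on low counts that kept 14237 genes, and *Nqo1* did not pass. The 15 RNA-seq libraries form 4 groups by genotype and treatment. There were 4 libraries of WT cells kept in plain medium (non-foamy) and 4 of WT cells loaded overnight with soluble cholesterol at 20 µg/ml, which is cholesterol carried by methyl-beta-cyclodextrin (foamy). Trem2-/- cells gave 3 non-foamy and 4 foamy libraries in the same way. The Trem2-/- line was made with a guide RNA in BV2 cells that express Cas9, a line which was itself grown from 1 clone, and Trem2-/- clones were then isolated by limiting dilution. Genotype therefore cannot be told apart from differences between clones. The sources do not state whether the WT cells are that Cas9 line or whether the libraries of a group are separate cultures, so the p-values measure only the spread between these libraries. The total per library was between 23538963 and 41683825 counts. Levels are given as CPM, which are counts scaled to library size, with TMM factors applied.

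NRF2, encoded by *Nfe2l2*, is a transcription factor that turns on genes against oxidants and reactive chemicals. KEAP1 binds NRF2 in resting cells and passes it to the CUL3 and RBX1 ubiquitin ligase for degradation, and oxidants act on cysteines of KEAP1 so that NRF2 accumulates. NRF2 then pairs with small MAF proteins on the antioxidant response element, while BACH1 competes for the same sites. The control of NRF2 is largely on the protein, so that its messenger RNA alone does not give its activity. In macrophages the target genes keep glutathione and thioredoxin reduced while the cell makes superoxide and takes up lipids.

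The antioxidant response element has the core TGACNNNGC, in which N stands for any base, and a related form is TGAGNNNGC. Both were looked for on both strands in the 300 bases from 250 before to 50 after each transcription start, from the RefSeq promoter table for GRCm38.p6. This table held 10 windows for 8 members, with 3 starts for *Txnrd1*. *Gclc* and *Gsr* were not in it. The core TGACNNNGC was found in 5 of the 10 windows, those of *Nfe2l2*, *Gclm*, *Srxn1*, *Prdx1* and the second start of *Txnrd1*, and it was found in 12.4% of all 32851 windows of this length. The form TGAGNNNGC was found in 17.6% of all windows, and either form in 27.8%. The windows of *Keap1*, *Nqo1* and *Txn1* held neither. The upstream matches of 4 members are printed with 20 bases on each side because they hold members called lower in Trem2-/- cells (*Gclm*, *Txnrd1*) and members that were not called (*Prdx1*, *Srxn1*), and the capitals mark the core in its first form or, for *Srxn1*, its second, read as the reverse complement in all but 1 of them.
Gclm: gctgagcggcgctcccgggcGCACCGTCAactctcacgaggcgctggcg
Txnrd1, second start: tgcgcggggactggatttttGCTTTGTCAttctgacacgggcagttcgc
Prdx1: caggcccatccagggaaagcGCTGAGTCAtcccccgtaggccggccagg
Srxn1, distal: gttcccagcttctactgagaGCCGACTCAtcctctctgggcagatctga
Srxn1, proximal: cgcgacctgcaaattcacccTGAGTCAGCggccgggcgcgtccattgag
All 5 stretches are given on the plus strand of GRCm38 and lie outside annotated exons, at chr3:122245403-122245451 for *Gclm*, chr10:82859094-82859142 for *Txnrd1*, chr4:116685446-116685494 for *Prdx1*, and chr2:152105346-152105394 and chr2:152105459-152105507 for *Srxn1*. The matches of *Prdx1* and of the proximal *Srxn1* site overlap a match to the AP-1 motif TGANTCA. A match is a description of the letters, and no binding was measured.

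**Figure D1:**
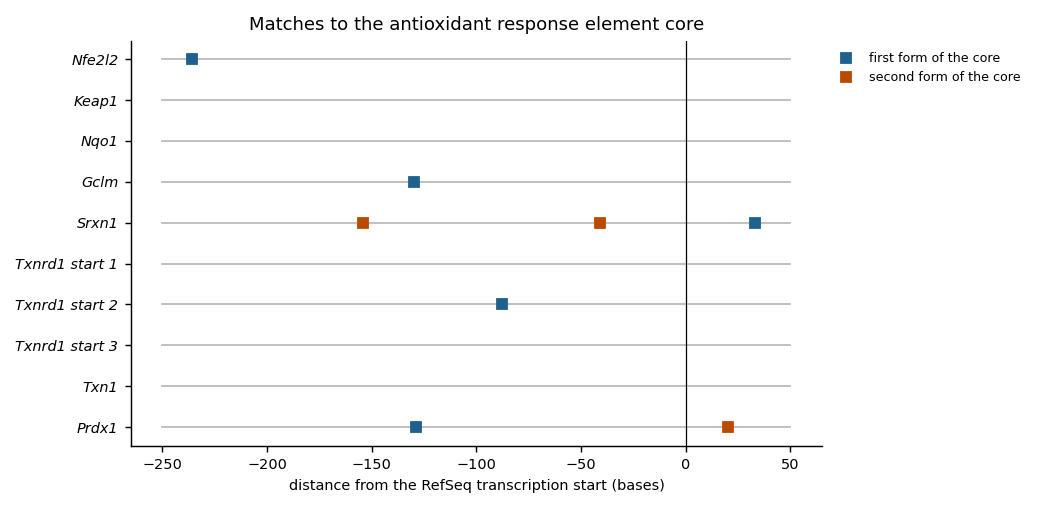
Matches to the antioxidant response element core in the promoter windows of 8 members. Each line is 1 window of 300 bases, the horizontal axis is the distance in bases from the RefSeq transcription start, blue squares mark the first form of the core (TGACNNNGC) and orange squares the second (TGAGNNNGC); 5 of the 10 windows hold the first form.

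The libraries were first checked against their labels. *Trem2*, which encodes the deleted receptor, was between 327 and 415 CPM in the 8 WT libraries and between 214 and 232 CPM in the 7 Trem2-/- libraries. The genotypes did not overlap, and the Trem2-/- level was 0.628 times the WT level without cholesterol, so that the deletion left much of the transcript count in place. Of 8 sterol genes, all were called in the WT response, 3 higher and 5 lower. Between the Trem2-/- libraries labelled foamy and non-foamy 5 of the 8 were called, 3 higher and 2 lower, each in the opposite direction to WT cells, and 3 were not called. *Abca1*, an exporter of cholesterol, was higher in WT foamy libraries by 0.82 (log2, s.e. 0.09, edgeR adjusted p = 3.0e-05). In the Trem2-/- libraries labelled foamy it was lower than in those labelled non-foamy by 0.49 (log2 fold change -0.49, s.e. 0.10, edgeR adjusted p = 0.0478). *Cyp51*, an enzyme of cholesterol synthesis, had a log2 fold change of -0.78 (s.e. 0.06, edgeR adjusted p = 1.56e-08) in WT cells and 0.53 (s.e. 0.06, edgeR adjusted p = 7.76e-05) between the Trem2-/- libraries. *Abcg1*, also an exporter, had 0.76 in WT cells, which was called, and -0.44 between the Trem2-/- libraries, which was not. The *Abca1* call between the Trem2-/- libraries was lost in each of the 7 fits that left out 1 of them (edgeR adjusted p = 0.0672 to 0.444) and under total counts. That of *Mylip* (-0.44, edgeR adjusted p = 0.0128) was lost without Trem2-/- non-foamy replicate 1 or 2 or Trem2-/- foamy replicate 3 (up to 0.183). It was also lost under total counts (edgeR adjusted p = 0.121), whereas the *Cyp51*, *Idi1* and *Fdft1* calls held in all of these fits. Of 3 other lipid genes that the study examined in these cells, *Plin2*, a coat protein of lipid droplets, was higher in the Trem2-/- libraries labelled foamy (0.58, edgeR adjusted p = 0.000184) and was not called in WT cells (-0.05). *Stard4*, a carrier of cholesterol, had -0.51 in WT cells, which was called, and 0.27 between the Trem2-/- libraries, which was not, and *Fabp5* was called in neither (-0.04 and 0.02). Between the non-foamy libraries of the genotypes all 8 sterol genes were called, each in the direction of the WT response. *Abca1* was higher in Trem2-/- cells by 1.27, *Abcg1* by 1.22, and *Cyp51* had -1.62. Between the foamy libraries 3 of the 8 were called, all lower in Trem2-/- cells (*Cyp51* -0.30). Of all tested genes, 22.6% were called lower and 21% higher in the first comparison, and 15.9% and 14.3% in the second. The treatment labels of the Trem2-/- libraries are kept as deposited, and whether they were exchanged was not tested. In the comparisons of the genotypes, without and with cholesterol mean the libraries labelled non-foamy and foamy, so that each of these comparisons, like the Trem2-/- response and the difference of the responses, rests on these labels.

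Macrophage genes were present, with *Cd68* the most abundant of 11 macrophage and microglia markers at a mean of 1449 CPM. The markers that set microglia apart were low, with *Tmem119* at a mean of 0.374 CPM in WT non-foamy libraries and *Cx3cr1* and *P2ry12* under 2 CPM there. Of 14 markers of other cell types, 12 did not pass the filter and 7 had no count in any library. The WT non-foamy replicate 3 library stood apart from its group. It had the fewest counts, 7.97% of them on mitochondrial transcripts against 6.55 to 6.73% in the other libraries of the group, and its genes deviated from the group mean by a median of 0.22 (absolute log2). WT foamy replicate 1 (5.83% mitochondrial, against 6.57 to 7.76% in its group) and Trem2-/- foamy replicate 4 (8.05%, against 6.53 to 7.51%) followed, each with a median deviation of 0.19. Without WT non-foamy replicate 3, *Nfe2l2* was called higher in Trem2-/- cells without cholesterol (0.19, edgeR adjusted p = 0.0247).

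The levels of the members spanned several orders of magnitude. Per kilobase of exon, *Txn1*, which encodes thioredoxin, had the highest mean of the 15 libraries at 407 CPM per kb, and *Prdx1*, a peroxiredoxin that removes hydrogen peroxide, followed at 384. The ranges of these genes overlapped. *Nfe2l2* was at 51.1 CPM per kb and *Srxn1*, which encodes the sulfiredoxin that repairs over-oxidized peroxiredoxins, at 15.6. *Txnrd1* at 8.15, *Gclc* at 7.47 and *Gsr* at 6.45 CPM per kb came next, and each overlapped its neighbour in this order. *Keap1* at 3.10 and *Gclm* at 2.88 CPM per kb overlapped each other. *Nqo1* came last at 0.0575 CPM per kb.

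*Nqo1*, a quinone reductase that is often read as a measure of NRF2 activity, was barely counted in these cells. The counts were 0, 4, 0 and 2 in the WT non-foamy libraries, 2, 0, 0 and 0 in the WT foamy libraries, 8, 4 and 4 in the Trem2-/- non-foamy libraries and 8, 6, 4 and 2 in the Trem2-/- foamy libraries. These 44 counts in 15 libraries did not pass the filter on low counts. In a fit with no filter *Nqo1* was not called without cholesterol (edgeR adjusted p = 0.347), with cholesterol (0.0821) or in either response, and it was called higher in Trem2-/- cells over the mean of both treatments (edgeR adjusted p = 0.0231). At so few counts the fitted fold change depends on the prior count and is not given. No WT library had more than 4 counts and every Trem2-/- library had at least 2, so the genotypes overlapped. In all libraries between 82.7 and 83.9% of the counts from 1 to 10 were even, against 49.3 to 51.3% of counts over 1000, so a low count may stand for fewer fragments than its value. Whether both mates of a pair were counted is not stated in the sources used here.

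**Figure D2:**
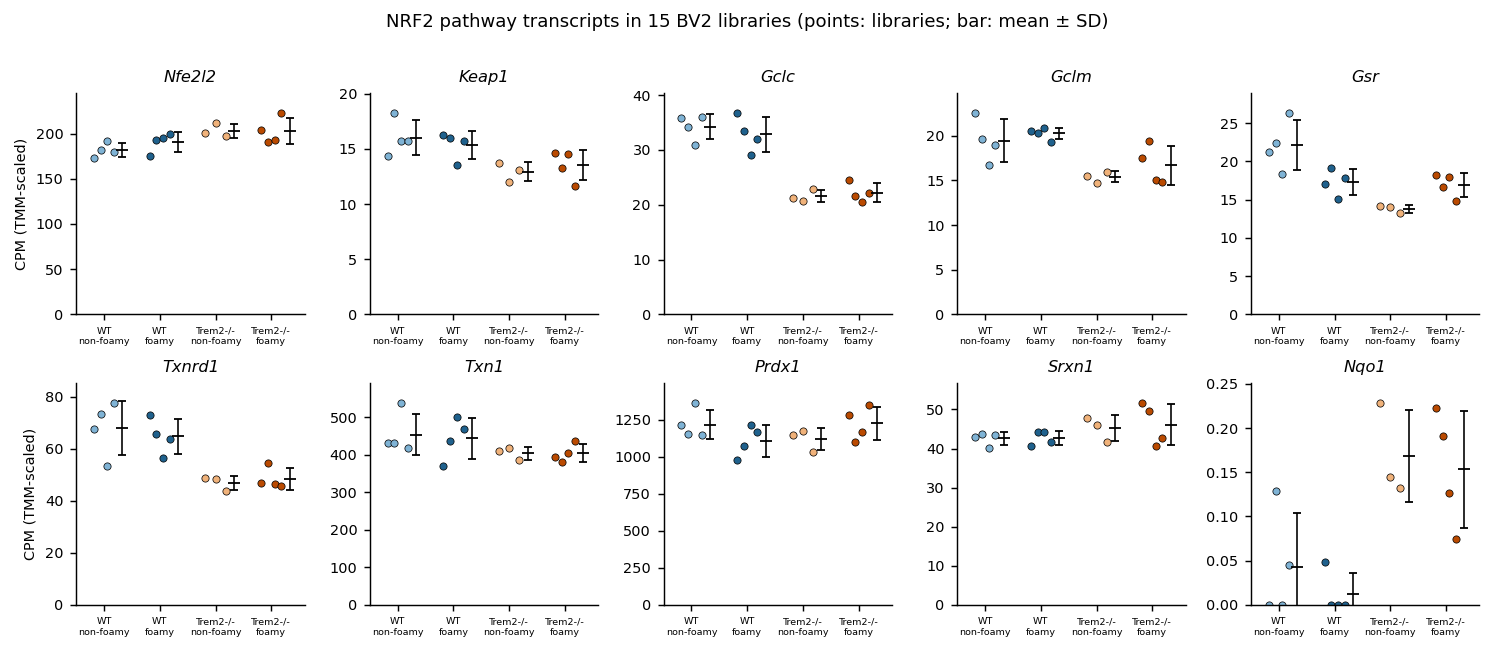
Level of each member in CPM (vertical axis, from 0) in the 4 groups (horizontal axis); points are libraries and the bar beside them is the mean ± SD. *Gclc* libraries lie between 29.1 and 36.8 CPM in WT cells and between 20.5 and 24.5 CPM in Trem2-/- cells, while *Srxn1*, *Txn1* and *Prdx1* overlap between the genotypes.

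To examine the effect of Trem2 deletion on the pathway, Trem2-/- and WT libraries were compared without and with cholesterol. Without cholesterol, 5 of the 9 tested members were lower in Trem2-/- cells and none was higher. These were *Gclc*, *Gclm*, *Gsr*, *Txnrd1* and *Keap1*. The background was wide, since 22.6% of all tested genes were called lower and 21% higher in this comparison, and the median log2 fold change was -0.31 over the 9 members and 0.02 over all tested genes. With cholesterol, 3 members were lower (*Gclc*, *Gclm* and *Txnrd1*) and none was higher, against 15.9% of all genes called lower and 14.3% called higher. The medians were -0.13 and 0.00, respectively. Scaling by total counts alone shifted the median of all genes by -0.14 without and -0.13 with cholesterol, and the share of calls that were higher went from 48.1 to 29.4% and from 47.4 to 23.3%. The scaling factors themselves were between 0.966 and 1.11 in WT libraries and between 0.918 and 0.983 in Trem2-/- libraries.

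**Figure D3:**
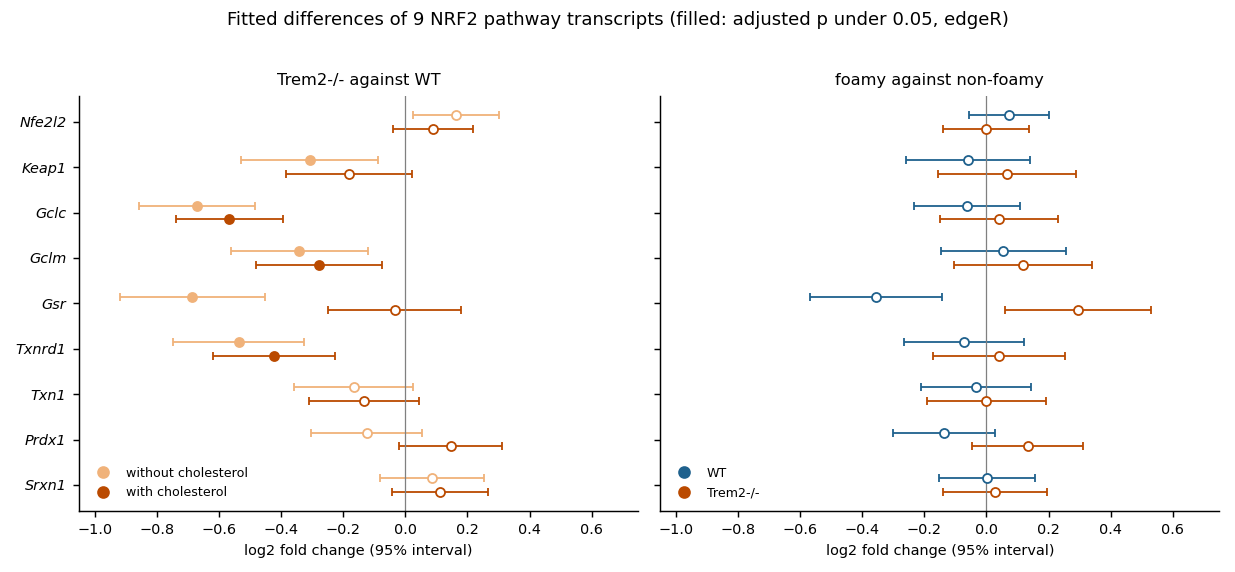
Fitted log2 fold changes of the 9 tested members (horizontal axis, with 95% intervals) for Trem2-/- against WT cells on the left and for foamy against non-foamy cells on the right; filled points had an edgeR adjusted p under 0.05. *Gclc*, *Gclm* and *Txnrd1* are filled below 0 in both genotype comparisons, and no point is filled on the right.

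Both subunits of the enzyme that begins glutathione synthesis were called lower in Trem2-/- cells, whereas *Gss*, glutathione synthetase, was not called (log2 fold changes -0.13 without and 0.06 with cholesterol). *Gclc* encodes the catalytic subunit of glutamate-cysteine ligase, the rate-limiting enzyme of glutathione synthesis. It was at 35.9, 34.2, 30.9 and 36.0 CPM in WT non-foamy libraries and at 21.2, 20.7 and 22.8 CPM in Trem2-/- non-foamy libraries. In foamy libraries it was at 36.8, 33.5, 29.1 and 32.0 CPM in WT and at 24.5, 21.7, 20.5 and 22.1 CPM in Trem2-/- cells. Every Trem2-/- library was below every WT library, a separation in this direction that 10.7% of all tested genes showed over the 15 libraries. The Trem2-/- level was 0.628 times the WT level without cholesterol (log2 fold change -0.67, s.e. 0.09, edgeR adjusted p = 2.78e-06) and 0.675 times with it (-0.57, s.e. 0.08, edgeR adjusted p = 1.89e-05).

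*Gclm* encodes the modifier subunit of the same ligase, which eases its inhibition by glutathione. It was at 22.6, 19.6, 16.7 and 19.0 CPM in WT and at 15.5, 14.8 and 16.0 CPM in Trem2-/- non-foamy libraries, with no overlap. In foamy libraries it was at 20.5, 20.3, 20.8 and 19.3 CPM in WT and at 17.5 and 19.5 CPM in 2 of the Trem2-/- libraries and 14.8 to 15 CPM in the others, where 1 Trem2-/- library lay above the lowest WT library. The log2 fold changes were -0.34 (s.e. 0.11, edgeR adjusted p = 0.0127) and -0.28 (s.e. 0.10, edgeR adjusted p = 0.0345). The first call was lost without WT non-foamy replicate 1 or Trem2-/- non-foamy replicate 2 (edgeR adjusted p = 0.0594 and 0.0545). The second was lost without WT foamy replicate 1, 2 or 3 or without Trem2-/- foamy replicate 3 or 4 (0.0594 to 0.110). Of the exonic bases of *Gclm*, 4.71% overlap other annotated genes.

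*Gsr* encodes glutathione reductase, which returns oxidized glutathione to its reduced form with NADPH. It was at 21.3, 22.4, 18.4 and 26.4 CPM in WT non-foamy libraries and at 14.1, 14.0 and 13.2 CPM in Trem2-/- non-foamy libraries. These groups did not overlap, a separation that 23.5% of all tested genes showed in this direction, with a log2 fold change of -0.69 (s.e. 0.11, edgeR adjusted p = 3.42e-05). In foamy libraries it was at 17.1, 19.2, 15.1 and 17.9 CPM in WT and at 18.2, 16.6, 17.97 and 14.8 CPM in Trem2-/- cells, and the groups overlapped (-0.03, 95% interval -0.25 to 0.18, edgeR adjusted p = 0.841).

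*Txnrd1* encodes the cytosolic thioredoxin reductase, a selenoprotein that keeps thioredoxin reduced. It was at 67.8, 73.4, 53.4 and 77.4 CPM in WT and at 48.6, 48.5 and 43.9 CPM in Trem2-/- non-foamy libraries. In foamy libraries it was at 73.0, 65.75, 56.6 and 63.9 CPM in WT and at 46.7, 54.6, 46.4 and 45.8 CPM in Trem2-/- cells. The groups did not overlap in either comparison, and 23.5% and 15% of all tested genes were separated in this direction. The log2 fold changes were -0.54 (s.e. 0.10, edgeR adjusted p = 0.000184) and -0.42 (s.e. 0.09, edgeR adjusted p = 0.0015).

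Thioredoxin, peroxiredoxin 1 and sulfiredoxin did not pass the test at the transcript level. *Txn1* was between 418 and 536 CPM in WT and between 385 and 418 CPM in Trem2-/- non-foamy libraries (log2 fold change -0.17, 95% interval -0.36 to 0.02). *Prdx1* was between 1143 and 1359 CPM in WT and between 1032 and 1171 CPM in Trem2-/- non-foamy libraries (-0.12, 95% interval -0.30 to 0.05). *Srxn1* was between 40.2 and 43.8 CPM in WT and between 41.6 and 47.9 CPM in Trem2-/- non-foamy libraries (0.09, 95% interval -0.08 to 0.25). Each of these intervals ended short of the change of *Gclc*. With cholesterol the log2 fold changes were -0.13 for *Txn1*, 0.15 for *Prdx1* and 0.11 for *Srxn1*, and the edgeR adjusted p-values of these genes were between 0.154 and 0.419 in both comparisons. Under total counts *Txn1* was called lower in both and *Prdx1* without cholesterol. Without WT foamy replicate 1, *Txn1* was also called lower with cholesterol (-0.21, edgeR adjusted p = 0.0458). Of the stretches of 50 bases in *Prdx1* transcripts, 8.81% are shared with other genes, so its counts may be split with copies.

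The transcription factor was called at neither treatment, and its sensor was called lower without cholesterol. *Nfe2l2* was at 173, 182, 192 and 180 CPM in WT and at 201, 212 and 197 CPM in Trem2-/- non-foamy libraries. The groups did not overlap, as was so in this direction for 22.6% of all tested genes, and the log2 fold change of 0.16 (s.e. 0.07) was not called (edgeR adjusted p = 0.0521). Under total counts it was 0.02 (edgeR adjusted p = 0.736), and the fits that called it are given with the processing alternatives. With cholesterol it was 0.09 (95% interval -0.04 to 0.22), and -0.04 under total counts. *Keap1* was at 14.4, 18.3, 15.8 and 15.7 CPM in WT and at 13.7, 11.98 and 13.1 CPM in Trem2-/- non-foamy libraries, with a log2 fold change of -0.31 (s.e. 0.11, edgeR adjusted p = 0.0226). That call was lost without WT non-foamy replicate 2 or Trem2-/- non-foamy replicate 2 or 3 (edgeR adjusted p = 0.0522 to 0.104). With cholesterol the fold change of *Keap1* was -0.18 (95% interval -0.38 to 0.02, edgeR adjusted p = 0.172), and under total counts it was -0.31 and called (edgeR adjusted p = 0.0388). Of the exonic bases of *Keap1*, 10.9% overlap *Gm16754* on the opposite strand.

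Between the Trem2-/- libraries 5 of the 8 sterol genes were called in the opposite direction. Of these, *Abca1* and *Mylip* were not called under total counts. For this reason the genotypes were also compared over the mean of both treatments, which does not rest on the order of those labels. Here 6 of the 9 members were called, against 51.2% of all tested genes. The log2 fold changes were -0.62 for *Gclc* (edgeR adjusted p = 1.88e-08), -0.48 for *Txnrd1*, -0.36 for *Gsr*, -0.31 for *Gclm* and -0.24 for *Keap1*. *Nfe2l2* was called higher at 0.13 (edgeR adjusted p = 0.0243). Under total counts *Nfe2l2* was at -0.0081 (log2) and not called (edgeR adjusted p = 0.863), and its call was also lost without WT non-foamy replicate 1, Trem2-/- non-foamy replicate 2 or Trem2-/- foamy replicate 4 (0.0520 to 0.0766). *Txn1* (-0.15, edgeR adjusted p = 0.0510), *Prdx1* (0.01) and *Srxn1* (0.10) were not called. *Txn1* was called lower without WT non-foamy replicate 1, 2 or 4, WT foamy replicate 1 or Trem2-/- foamy replicate 4 (edgeR adjusted p = 0.00636 to 0.0487), and under total counts *Txn1* (-0.28) and *Prdx1* (-0.12) were both called lower. This comparison was chosen after the sterol genes had been seen.

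The response to cholesterol was examined next. No library came from cells given methyl-beta-cyclodextrin alone, so cholesterol cannot be told apart from its carrier in these comparisons. In WT cells none of the 9 members was called, with 2.8% of all tested genes called, and 1 member, *Gsr*, had an unadjusted p under 0.05, as did 16.4% of all tested genes. The 399 genes called became 146 to 526 with 1 library left out (188 and 220 without WT non-foamy replicate 1 and 4, 243 and 146 without WT foamy replicate 1 and 2). *Gsr* went from 22.1 ± 3.29 CPM (SD, n = 4) to 17.3 ± 1.69 CPM (SD, n = 4), with a fitted change of -0.36 (log2, s.e. 0.10, edgeR adjusted p = 0.0606). DESeq2 called 1 member, *Gsr*, at an adjusted p of 0.0197. The other 8 members had log2 fold changes between -0.14 and 0.07. Between the Trem2-/- libraries labelled foamy and non-foamy none of the 9 was called by edgeR or DESeq2, with 0.14% of all tested genes called, and again 1 had an unadjusted p under 0.05, against 6.45% of all tested genes. The 20 genes called became 10 to 18 with 1 library left out, with 10 and 12 without Trem2-/- non-foamy replicate 1 and 2 and 13 and 11 without Trem2-/- foamy replicate 1 and 3. The member was *Gsr*, which went from 13.8 ± 0.50 CPM (SD, n = 3) to 16.9 ± 1.55 CPM (SD, n = 4), with no overlap (log2 fold change 0.30, s.e. 0.11, edgeR adjusted p = 0.697). In this comparison 5.38% of all tested genes were higher with no overlap. *Nfe2l2* was at 182 ± 7.78 and 191 ± 10.6 CPM in WT cells (SD, n = 4 each) and had a fold change of 0.999 between the Trem2-/- groups.

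The difference between the responses was tested directly. *Gsr* was the member called, at 0.65 (log2, s.e. 0.15, edgeR adjusted p = 0.0203), with 3.64% of all tested genes called. These 518 genes became 201 to 661 with 1 library left out, with 201, 227 and 273 without Trem2-/- non-foamy replicate 1, 2 and 3, 276 and 336 without Trem2-/- foamy replicate 1 and 3, 343 without WT non-foamy replicate 1 and 238 without WT foamy replicate 2. The call was lost when Trem2-/- non-foamy replicate 1, 2 or 3 or Trem2-/- foamy replicate 1 was left out (edgeR adjusted p = 0.0508 to 0.0610). This result rests on the treatment labels of the Trem2-/- libraries, for which 5 sterol genes were called in the opposite direction to WT cells. Of these 5, *Abca1* and *Mylip* were not called under total counts. The response of *Prdx1* differed by 0.27 (95% interval 0.03 to 0.51, edgeR adjusted p = 0.229) and was called under total counts (0.28, edgeR adjusted p = 0.0488), and the other 7 members had differences between -0.07 and 0.13.

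The proteins that hold NRF2 in check or share its sites were given by a list of 13 regulators and partners, of which 11 were tested. Without cholesterol 3 were higher and 2 lower in Trem2-/- cells, and with cholesterol 2 were higher. Over all tested genes 21% were called higher and 22.6% lower without cholesterol and 14.3% and 15.9% with it, so that these shares lie near the background. With 1 library left out these counts were 2 to 3, 1 to 3 and 1 to 3, and under total counts 2, 2 and 1, with 1 lower in the last comparison. Of all 14237 tested genes, total counts gave 1820 higher and 4379 lower without cholesterol, and 1115 and 3666 with it. *Bach1*, the repressor that competes with NRF2, was between 24.6 and 30.8 CPM in WT and between 47.8 and 48.6 CPM in Trem2-/- non-foamy libraries. It was higher by 0.74 (log2, s.e. 0.08, edgeR adjusted p = 5.03e-08) without and by 0.38 (s.e. 0.07, edgeR adjusted p = 0.000233) with cholesterol. *Sqstm1*, which encodes the autophagy receptor p62 that binds KEAP1, was called higher without cholesterol (0.47) and not with it (0.18). *Btrc*, a ligase subunit of the KEAP1-independent route, was called higher in both (0.27 and 0.23). Neither *Btrc* call held under total counts (0.13 and 0.10, edgeR adjusted p = 0.324 and 0.448). The first was lost without WT or Trem2-/- non-foamy replicate 1, and the second without WT foamy replicate 1, 2 or 4 or Trem2-/- foamy replicate 1, 2 or 3 (edgeR adjusted p up to 0.176). *Rbx1*, the ring subunit of the KEAP1 ligase, was lower without cholesterol at -0.36 and was not called with it (-0.03). The other tested partners were *Cul3*, *Nfe2l1*, *Gsk3b*, *Dpp3* and the small MAF genes *Mafg*, *Mafk* and *Maff*, of which *Dpp3* was called lower without cholesterol (-0.24). That call was lost without WT non-foamy replicate 2 or 4 or any of the 3 Trem2-/- non-foamy libraries (edgeR adjusted p up to 0.145).

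Other genes known as NRF2 targets went in both directions. Of 29 listed, 23 were tested, and 9 had higher levels in Trem2-/- cells without cholesterol and 5 had lower ones. With cholesterol, 12 were higher and 2 lower. Over all tested genes the shares were 21% higher and 22.6% lower, and 14.3% and 15.9%, and the 5 lower genes are near that share. The median log2 fold changes were 0.10 and 0.24. Under total counts the counts were 8 and 8 without and 10 and 5 with cholesterol. Of all 14237 tested genes, 1820 were then called higher and 4379 lower without cholesterol, and 1115 and 3666 with it. The 9 genes higher without cholesterol were *Hmox1*, *Fth1*, *Ftl1*, *Slc7a11*, *Gstm1*, *Gstm2*, *Ephx1*, *Mgst1* and *Idh1*. Of these, *Gstm2* (0.26) lost its call without WT non-foamy replicate 1, 2 or 4 or Trem2-/- non-foamy replicate 2 (edgeR adjusted p up to 0.145) and under total counts (0.12, edgeR adjusted p = 0.182). *Hmox1*, which encodes heme oxygenase 1, was at 423 ± 28.7 CPM in WT (SD, n = 4) and 528 ± 7.95 CPM in Trem2-/- non-foamy libraries (SD, n = 3), with a log2 fold change of 0.32 (s.e. 0.06, edgeR adjusted p = 0.00021). With cholesterol it was higher by 0.27 (s.e. 0.06, edgeR adjusted p = 0.00106), and every Trem2-/- library was above every WT library, which 9.3% of all tested genes showed in this direction. The ferritin subunits *Fth1* (0.48 and 0.42) and *Ftl1* (0.53 and 0.51) were higher in both comparisons, and both have many similar copies in the genome among which reads could be split.

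*Slc7a11*, the cystine importer that feeds glutathione synthesis, was at 13.9 ± 1.01 CPM in WT (SD, n = 4) and 20.0 ± 2.73 CPM in Trem2-/- non-foamy libraries (SD, n = 3). It was higher by 0.51 without and 0.50 with cholesterol, against the lower *Gclc* and *Gclm*. Among enzymes that conjugate or hydrolyse reactive compounds, *Gstm1* (0.60 and 0.44) and *Ephx1* (0.71 and 0.53) were higher. *Mgst1*, a glutathione transferase of membranes, had the largest change of the list. It was between 1.76 and 3.08 CPM in WT and between 12.7 and 17.4 CPM in Trem2-/- non-foamy libraries. The log2 fold change was 2.60 (s.e. 0.20, edgeR adjusted p = 3.85e-10), and 2.07 with cholesterol. *Idh1*, a cytosolic source of NADPH, was higher by 0.51 and 0.47.

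The 5 genes lower without cholesterol were *G6pdx*, *Pgd*, *Taldo1*, *Abcc4* and *Ugdh*. *G6pdx*, the first enzyme of the pentose phosphate pathway and a source of NADPH, was at 154 ± 7.52 CPM in WT (SD, n = 4) and 124 ± 3.19 CPM in Trem2-/- libraries (SD, n = 3), with a log2 fold change of -0.31 (s.e. 0.06, edgeR adjusted p = 0.000174). *Pgd*, the next NADPH-forming enzyme, was at -0.34 and *Taldo1*, transaldolase of the same pathway, at -0.38. With cholesterol these were at -0.10, -0.13 and -0.11 and were not called. *Tkt*, the transketolase of that pathway, went the other way, with 0.05 without cholesterol, which was not called, and 0.24 with it, which was (edgeR adjusted p = 0.0133). The *Tkt* call was lost without WT foamy replicate 3 and under total counts (edgeR adjusted p = 0.0608 and 0.377). *Abcc4*, an export pump, was lower in both (-0.61 and -0.35), as was *Ugdh* (-0.19 and -0.16). With cholesterol the *Abcc4* call was lost without Trem2-/- foamy replicate 4 (edgeR adjusted p = 0.0577), and that of *Ugdh* without WT foamy replicate 2 or 4 or Trem2-/- foamy replicate 3 (up to 0.0731). Without cholesterol the *Ugdh* call was lost without Trem2-/- non-foamy replicate 1 (0.0508). *Me1*, malic enzyme, was not called (-0.27 and 0.05).

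**Figure D4:**
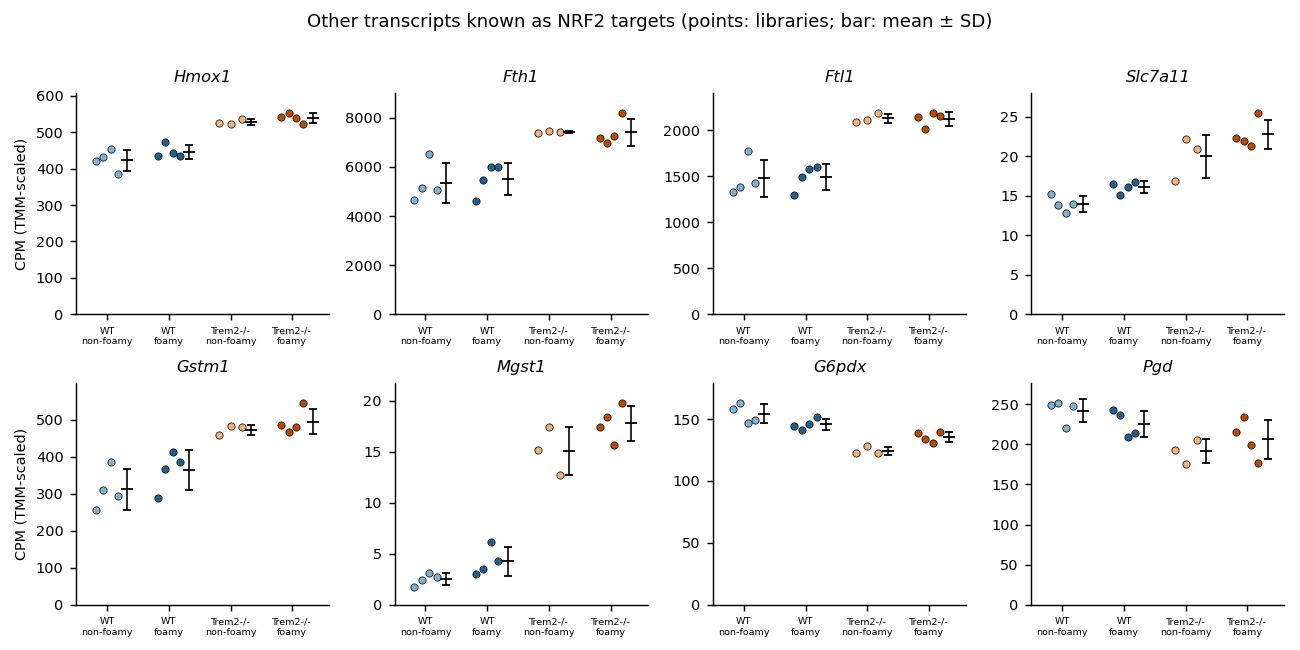
Level in CPM (vertical axis, from 0) of 8 other genes known as NRF2 targets in the 4 groups (horizontal axis); points are libraries and the bar is the mean ± SD. *Hmox1*, *Fth1*, *Ftl1*, *Slc7a11*, *Gstm1* and *Mgst1* are higher in Trem2-/- libraries and *G6pdx* is lower, while *Pgd* overlaps over all libraries.

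Of 21 genes of glutathione handling outside the members, 15 were tested. Without cholesterol 1 was higher and 3 lower, and with cholesterol 2 were higher and 1 lower. With TMM factors these shares are at or below those of all tested genes (21% higher and 22.6% lower, and 14.3% and 15.9%). *Glrx5*, a mitochondrial glutaredoxin of iron-sulfur cluster assembly, was lower in both (-0.61 and -0.20). *Ggct* (-0.56) and *Gpx4*, the peroxidase that removes lipid peroxides (-0.29), were lower without cholesterol, and with cholesterol they had -0.23 and 0.02 and were not called. Without WT non-foamy replicate 3 *Gpx4* went to -0.17 and was not called (edgeR adjusted p = 0.0693), and the call was also lost without Trem2-/- non-foamy replicate 2 (0.0657). The *Glrx5* call with cholesterol was lost without WT foamy replicate 2 (0.0528). *Gsto1* was higher in both (0.30 and 0.24), and *Glrx3* with cholesterol (0.27). Under total counts 9 of the 15 were lower without cholesterol and 3 with it. Of all 14237 tested genes, 4379 and 3666 were then called lower, so that the first count lay above the share of all genes. *Gsto1* was not called with cholesterol under total counts (0.11, edgeR adjusted p = 0.0994).

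Of 18 genes of the thioredoxin and peroxiredoxin system, 17 were tested, with 4 called higher and 5 called lower in the absence of cholesterol. In its presence 6 were higher and 3 lower. Of all tested genes 21% were higher and 22.6% lower in the first comparison, and 14.3% and 15.9% in the second. Under total counts the calls were 3 higher against 7 lower in the first comparison and 4 against 6 in the second. All 14237 tested genes then gave 1820 higher against 4379 lower, and 1115 against 3666. *Txnip*, which encodes a protein that binds and blocks thioredoxin, was higher by 0.69 (s.e. 0.06, edgeR adjusted p = 6.54e-09) and 0.51 (s.e. 0.06, edgeR adjusted p = 7.36e-07). *Msrb1*, a selenoprotein that reduces oxidized methionine with thioredoxin, was higher by 0.90 and 0.52, while the mitochondrial *Msrb2* was lower (-0.68 and -0.91). *Nxn*, nucleoredoxin, was also lower (-1.24 and -0.999) at a mean under 2 CPM in every group. Its calls were lost without WT non-foamy replicate 2 or Trem2-/- non-foamy replicate 2 or 3 (edgeR adjusted p up to 0.0895), and without WT foamy replicate 3 or 4 or Trem2-/- foamy replicate 1, 3 or 4 (up to 0.156). The first *Msrb2* call was lost without Trem2-/- non-foamy replicate 1 (edgeR adjusted p = 0.0720), and its log2 fold change was -1.09 to -0.46 with 1 library left out. The peroxiredoxins differed from each other. *Prdx5* was higher in both comparisons (0.47 and 0.63) and *Prdx6* lower in both (-0.38 and -0.18). *Prdx3*, the mitochondrial peroxiredoxin, and *Prdx4*, that of the endoplasmic reticulum, were called higher with cholesterol (0.31 and 0.27). The *Prdx4* call was lost without WT foamy replicate 1 or Trem2-/- foamy replicate 4 (edgeR adjusted p up to 0.0777) and under total counts (0.0781). *Prdx2* was not called (-0.08 and -0.04).

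Of 11 genes of superoxide production and removal, 10 were tested, with 6 called higher and 1 lower in the absence of cholesterol and 5 called higher in its presence, beside 21% higher and 22.6% lower, and 14.3% higher, of all tested genes. *Cybb*, the catalytic subunit of the phagocyte NADPH oxidase, was at 446 ± 4.61 CPM in WT (SD, n = 4) and 678 ± 24.4 CPM in Trem2-/- non-foamy libraries (SD, n = 3). It was higher by 0.60 (s.e. 0.06, edgeR adjusted p = 3.88e-08) and by 0.51 (s.e. 0.06, edgeR adjusted p = 4.82e-07) with cholesterol. *Cat*, catalase, was higher by 0.58 and 0.37, and *Rac2*, which activates the oxidase, by 0.34 and 0.20. *Sod2*, the mitochondrial superoxide dismutase, was lower without cholesterol (-0.39) and was not called with it (-0.07). *Sod1*, the cytosolic enzyme, was called higher with cholesterol (0.30). Under total counts 3 genes of this list were higher in each comparison, beside 1820 and 1115 of all 14237 tested genes. *Rac2* was not called with cholesterol under total counts (0.07, edgeR adjusted p = 0.295), nor was it without WT foamy replicate 1 or Trem2-/- foamy replicate 3 (up to 0.0686).

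**Figure D5:**
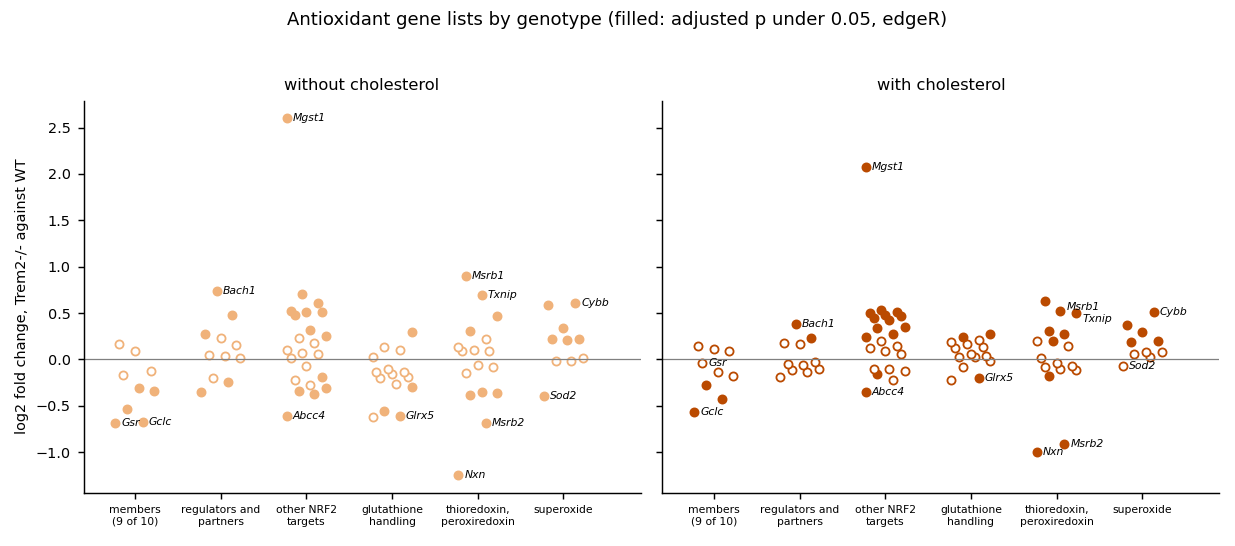
Log2 fold change of Trem2-/- against WT cells (vertical axis) for each tested gene of 6 lists (horizontal axis), without cholesterol on the left and with it on the right; each point is 1 gene, spread sideways for clarity, and filled points had an edgeR adjusted p under 0.05. Called members lie below 0, whereas called genes of the other lists lie on both sides, from *Mgst1* at 2.60 to *Nxn* at -1.24 without cholesterol.

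In the WT response to cholesterol 2 of the 76 tested genes of these 5 lists were called (2.63%), near the 2.8% of all tested genes. In these cells *Mgst1* (0.76, edgeR adjusted p = 0.0347) and *Msrb1* (0.38, edgeR adjusted p = 0.00284) were higher, and the *Mgst1* groups overlapped. The *Mgst1* call was lost without WT non-foamy replicate 1, 2 or 4 or WT foamy replicate 3 or 4 (0.53 to 0.90 over the fits with 1 library left out, edgeR adjusted p up to 0.133). Over the processing alternatives, WT response calls reached 2 higher among other targets and 2 higher and 1 lower among superoxide genes. They reached 1 higher and 1 lower among the regulators and 1 lower among the glutathione genes. None of the 76 was called between the Trem2-/- libraries by edgeR or by DESeq2. Unadjusted p-values under 0.05 were found for 4 of the 23 other targets, 3 of the 15 glutathione genes, 1 of the 11 regulators, 1 of the 10 superoxide genes and 0 of the 17 thioredoxin genes, against 6.45% of all tested genes. With no filter and in a fit of the Trem2-/- libraries alone, *Gstp1*, a glutathione transferase, was called higher (0.32, edgeR adjusted p = 0.0110 and 0.0239). The responses differed for 3 of the 76 genes (3.95%, beside 3.64% of all tested genes), which were *Glrx5* (0.41), *Msrb1* (-0.39) and *Sod2* (0.32), which rests on the same treatment labels. With 1 of the 15 libraries left out in turn, the *Sod2* call was lost in 10 fits (edgeR adjusted p up to 0.116), that of *Msrb1* in 7 (up to 0.0925) and that of *Glrx5* in 1, without Trem2-/- non-foamy replicate 1 (0.0505).

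Markers of other cell states moved with the genotype. All 8 genes of a cell cycle list were lower in Trem2-/- cells in both comparisons, with median log2 fold changes of -0.73 and -0.43. Of all tested genes, 22.6% were called lower and 21% higher without cholesterol, and 15.9% and 14.3% with it. Of 11 macrophage and microglia markers, 6 were higher and 2 lower in both comparisons, and with cholesterol *Ptprc* and *Csf1r* were not called under total counts (edgeR adjusted p = 0.587 and 0.219), *Ptprc* lost its call without WT foamy replicate 2 or Trem2-/- foamy replicate 4, and *Cx3cr1* without WT foamy replicate 1, 2 or 4 or Trem2-/- foamy replicate 2 or 4 (up to 0.114). The summed level of the markers was 2908 CPM in WT and 4181 CPM in Trem2-/- non-foamy libraries, and 3168 and 4267 CPM in foamy libraries. The part of these differences, or of the scaling factors, in the lower *Gclc*, *Gclm* and *Txnrd1* levels was not tested. The summed level of markers of other cell types was 1.67, 2.09, 1.56 and 1.53 CPM in the 4 groups. In the WT response *Cdk1*, *Ccnb1* and *Top2a* of the cell cycle list were called lower, beside 2.8% of all tested genes called. With 1 library left out these calls were lost in 1, 3 and 6 of 8 fits. In the difference of the responses *Cdk1* (0.41) and *Ccnb1* (0.40) were called, beside 3.64% of all tested genes. Those calls were lost in 1 and 4 of 15 fits.

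The members also differed in how they varied between libraries. Across the 15 libraries *Gclc* and *Txnrd1* had a Pearson correlation of 0.90 and *Gclc* and *Nfe2l2* of -0.73, which both contain the difference between the genotypes. After the group means were removed, *Txn1* and *Prdx1* had 0.89 and *Nfe2l2* and *Prdx1* 0.83, whereas *Txn1* had -0.83 with *Txnrd1* and -0.80 with *Gclc*. These pairs had the most extreme values among the tested members, and no share over all genes was computed. The points share their library, and *Txn1* was highest and *Txnrd1* lowest of the WT non-foamy group in replicate 3, the library with the fewest counts. The same held in Trem2-/- foamy replicate 4 (436 and 45.8 CPM). In WT foamy replicate 1 *Txn1* was lowest (369 CPM) and *Txnrd1* highest (73.0 CPM) of the group. Outside the lists, the genes most like *Nfe2l2* in log2(CPM + 1) were *Zfp991* (Pearson r = 0.96), *Arsk*, *Rps4x-ps*, *Slc25a3* and *Slc9a4* (0.93), and 36 of 11597 genes were over 0.9. *Nqo1* was too low for such a comparison, and *Gclc* was used in its place, a choice made after the values had been seen. Most like *Gclc* were *Cemip2* (0.98), *Srl*, *Rpa1*, *Ubtf* and *Acsf3* (0.97), with 628 genes over 0.9. These correlations describe 15 libraries that fall into 2 genotypes.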

How the data were processed

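The authors trimmed the reads with Trimmomatic, aligned them with HISAT2 to GRCm38 (Ensembl release 102; mm10 per the labels) and counted them with featureCounts, and they deposited raw read counts per gene for each library. The strand setting and the treatment of reads with several matches are not given in the sources used here. The members and the 9 other gene lists were chosen with earlier results of these data known.

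Library sizes were scaled by TMM, genes were kept with filterByExpr at a minimum count of 10, and a quasi-likelihood model of edgeR 4.0.16 (glmQLFit, then glmQLFTest; R 4.3.3) gave 1 mean to each group of the 15 libraries. Kept genes held 99.97% of the counts, and the dispersion corresponded to 10.2% variation between replicates. The 5 comparisons were foamy against non-foamy in each genotype, Trem2-/- against WT at each treatment, and their interaction. A gene was called at a Benjamini-Hochberg adjusted p under 0.05 over all 14237 tested genes, with two-sided tests. Intervals are 95%. Samples were grouped by the title and description labels. Named were all members, *Trem2*, 3 sterol genes and a fixed set of antioxidant genes. Up to 4 called genes per list and comparison were added by absolute log2 fold change, from 1 CPM upwards. *Dpp3*, *Taldo1*, *Tkt*, *Ugdh*, *Idh1*, *Fth1*, *Ftl1*, *Gstm2*, *Gstp1*, *Gss*, *Glrx3*, *Plin2*, *Stard4* and *Fabp5* beyond this rule were chosen after their values were seen. So were *Cd68*, *Tmem119*, *Cx3cr1* and *Ptprc*. The genes most alike were ranked by Pearson correlation among tested genes averaging 1 CPM or more.

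The alternatives were RLE factors, total counts alone, DESeq2 1.42.0, no filter, a filter of 10 counts in all libraries, a fit of the compared groups alone, a replicate block, a least absolute log2 fold change of 1, and fits that drop 1 library. Halved counts and the genotype comparison averaged over treatments were added after seeing the data. The steps were tested on simulated data. Exonic overlaps came from GENCODE M21 for GRCm38 and promoters from RefSeq for GRCm38.p6. Replicates differed by more than counting noise (chi-square per gene 5.95 to 45.2).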

Additional observations from a re-analysis of the deposited data

Results flagged for a closer look

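Among 30 groups of 4 libraries tested for a library far from the others, 3 had one, and chance gives about 1 in 20. *Txn1* was at 536 CPM in WT non-foamy replicate 3, against 418 to 430 CPM in the other 3 libraries. *Txnrd1* was at 54.6 CPM in Trem2-/- foamy replicate 2, against 45.8 to 46.7 CPM. *Nqo1* was at 0.0483 CPM in WT foamy replicate 1 and had no count in the other 3, which with 2 counts in all is not a difference at this depth.

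The difference between the responses of the genotypes to cholesterol was past the threshold in edgeR for 4 genes of the lists. It was 0.65 (log2) for *Gsr*, 0.41 for *Glrx5*, -0.39 for *Msrb1* and 0.32 for *Sod2*. With 1 library left out in turn, these calls were lost in 4, 1, 7 and 10 of 15 fits, respectively. None of *Gsr* (-0.36 and 0.30), *Glrx5* (-0.19 and 0.22) and *Sod2* (-0.18 and 0.14) was called in the WT or the Trem2-/- response itself, whereas *Msrb1* was called higher in WT foamy cells (0.38) and had -0.01 between the Trem2-/- libraries. These values rest on treatment labels for which 5 of 8 sterol genes were called in opposite directions in the 2 genotypes. Of these, *Abca1* and *Mylip* were not called between the Trem2-/- libraries under total counts.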

How the results depend on the processing

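The number of members called was 0 in the WT response, 0 in the Trem2-/- response, 5 and 3 between the genotypes without and with cholesterol, and 1 in the difference of the responses. It became 1 in the WT response (*Gsr*) with no filter and with DESeq2. Under total counts alone, 4379 of all 14237 tested genes were called lower between the genotypes without cholesterol and 3666 with it. The number of members called became 7 without cholesterol, where *Txn1* and *Prdx1* joined, 5 with it and 2 in the difference. With a minimum absolute log2 fold change of 1 it was 0 in both genotype comparisons and in the difference. With 1 library left out, it was 0 to 1 in the WT response (1 without WT non-foamy replicate 3, where *Gsr* had an edgeR adjusted p of 0.0155), 0 in the Trem2-/- response, 3 to 6 between the genotypes without cholesterol (3 without Trem2-/- non-foamy replicate 2), 2 to 3 with it, and 0 to 1 in the difference. Without cholesterol, DESeq2, at least 10 counts in every library and halved counts called 6 members, with *Nfe2l2* as the sixth; the replicate block did so too. The other counts were within 1.5 times of those given. Over these alternatives the number of all genes called ran from 15 (minimum fold change) to 860 (DESeq2) in the WT response. It ran from 1 to 62 in the Trem2-/- response and 45 to 983 in the difference. Between the genotypes it ran from 880 to 6277 without and 409 to 4781 with cholesterol, beside 6207 and 4297 as first processed. With 1 library left out it was 5232 to 6380 and 3640 to 4192.

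Libraries with the same replicate number did not deviate together. Their correlations of deviations from the group means were -0.10 to 0.14, and 4 of 15 libraries correlated best with their own number. The sources do not state what the numbers stand for. These correlations do not show whether libraries with the same number share a culture or a day. The fit with a replicate block called 0, 0, 6, 3 and 1 members.

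*Gclc* and *Txnrd1* were called lower in both genotype comparisons, and *Gsr* without cholesterol, under every alternative run except the minimum fold change. In the 5 comparisons, reversals of log2 fold changes were of uncalled values near 0. Under total counts they were -0.0034, -0.058 and -0.018 for *Srxn1* (WT response, genotypes without and with cholesterol), 0.0038 and -0.040 for *Nfe2l2* (Trem2-/- response, genotypes with cholesterol) and 0.0061 for *Txn1* (Trem2-/- response). In the genotype comparison averaged over both treatments, total counts reversed *Nfe2l2*, which was called at 0.13 and became -0.0081, and the uncalled *Srxn1* (0.10 to -0.038) and *Prdx1* (0.01 to -0.12, then called). For *Srxn1* in the WT response, RLE factors gave -0.00195 and DESeq2 -0.00188. With 1 library left out, the WT response ranged from -0.11 to 0.0088 for *Keap1*, -0.0099 to 0.13 for *Gclm*, -0.023 to 0.027 for *Srxn1* and -0.10 to 0.057 for *Txn1*. The Trem2-/- response ranged from -0.050 to 0.029 for *Nfe2l2*, -0.012 to 0.084 for *Gclc*, -0.030 to 0.084 for *Srxn1*, -0.022 to 0.067 for *Txnrd1*, -0.039 to 0.028 for *Txn1* and -0.011 to 0.046 for *Trem2*. *Gsr* between the genotypes with cholesterol ranged from -0.098 to 0.022. The difference ranged from -0.018 to 0.13 for *Gclm*, -0.033 to 0.080 for *Srxn1* and -0.058 to 0.095 for *Txn1*. The cause was not tested. Scaling by total counts also moved the share of calls that were higher from 59.4 to 41.8% in the WT response and from 54.8 to 70.3% in the difference. Depth limited *Nqo1*, for which 3 counts correspond to 0.0669 to 0.132 CPM per library.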
